A study of Homo sapiens with 9 samples.

Results

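Curcumin was set against palmitic acid alone in cells labelled HepG2, a line derived from a human liver carcinoma. All 9 libraries of the series came from cells kept for 24 h in 750 µM palmitic acid, the commonest saturated fatty acid of diet and plasma. For the 3 libraries of palmitic acid alone no further agent is named, and in 3 others 20 µM curcumin, the yellow polyphenol of turmeric, followed for 12 h. The remaining 3 libraries, given 20 µM curcumin with 5 µM CuCl2 for 12 h, were not compared here but entered the estimate of spread. The labels describe no vehicle, no cells free of palmitic acid and no added 12 h for palmitic acid alone, so curcumin and those 12 h cannot be told apart. They do not state whether replicates were separate cultures, and the p-values reflect the scatter of these libraries alone, which can be technical. The comparison was chosen by its treatment labels and uses 6 of the 9 libraries. It covers 13443 of the 62703 genes in the table, those averaging 1 TPM or more across all 9 libraries. TPM, a count of transcripts per 1000000, is a length-scaled unit that sums to the same total in every library, so read depth is unknown.

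Curcumin reacts with cysteine thiols, and one protein with such thiols is KEAP1, which holds the transcription factor NRF2 at a low level. When KEAP1 is modified, NRF2 accumulates and binds antioxidant response elements near genes of heme breakdown, glutathione and thioredoxin metabolism, quinone reduction and NADPH supply. Palmitic acid is used in culture to load cells with saturated fat, which engages endoplasmic reticulum stress and inflammatory signalling through NF-kB. Interferon-stimulated genes are driven by STAT and IRF factors that bind a different motif, the interferon-stimulated response element (ISRE).

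The labelled cell type was checked against its markers. Each of 12 hepatocyte markers averaged less than 1 TPM, and ALB, APOA2, APOB, FGB and TTR, which encode plasma proteins, were listed at 0 in all 9 libraries. Of 7 markers of simple epithelium, KRT7, KRT8 and KRT18 reached 1 TPM, and EPCAM, KRT19, SOX9 and CDH1 did not. The summed level of those 7 genes was 3314.5 to 3811.7 TPM with palmitic acid alone and 2505.4 to 2864.8 TPM after curcumin. Nearly all of that sum came from KRT7, KRT8 and KRT18, so it does not speak for the other markers. Of 8 fibroblast markers 1 reached 1 TPM, as did 2 of 7 leukocyte markers and 0 of 6 endothelial markers. These values go against the label, which is kept here only as a name: what the cells are was not settled from these data. Mitochondrial genes held 10.1% to 12.98% of the TPM with palmitic acid alone and 10.4% to 12.4% after curcumin, with replicate 3 of palmitic acid alone the lowest.

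HMOX1, which breaks down heme, and the lipid genes ANGPTL4 and PLIN4 had the largest rises past the test on the log2(TPM + 1) scale, and IL6, KRT17 and MUC1 were among the largest falls. In all 264 of 13443 genes passed the test (limma on log2(TPM + 1), Benjamini-Hochberg adjusted p under 0.05), which is 1.96%. Of these 102 were higher after curcumin (0.759% of the genes tested) and 162 were lower (1.21%). The median log2 fold change was 0.53 among the higher genes and −0.62 among the lower ones, against −0.02 over all genes tested. A change of at least 1 on the log2(TPM + 1) scale, 2-fold there, was reached by 9 of the higher and 24 of the lower genes. That scale understates low genes, so ratios of mean TPM can reach 2-fold in further genes. Values of the 2 groups did not overlap in 1095 genes that were higher (8.15%) and 1157 that were lower (8.61%), and all 264 genes past the test were among them. At an unadjusted p under 0.05 there were 1885 genes. The number of genes past the test moved strongly with single libraries, from 54 without replicate 3 of curcumin to 619 without replicate 3 of palmitic acid alone. When the fit held only the 6 libraries compared, 35 genes passed, of which 34 were among the 264. With each library's mitochondrial share as a covariate 862 genes were higher and 643 lower, among them all 264, so that 57.3% of the calls were higher against 38.6%. No gene of the 264 changed sign in any of the 19 alternatives, but few of these could have changed one. Groups without overlap keep their sign when 1 library is left out or the pseudocount is changed. Other filters, estimates of spread or libraries outside the comparison leave the fold change as it was. Of the 264, 32 passed in every alternative that tested them, 15 higher and 17 lower. Of the 97 genes past the test that are named here, 58 lost the call when some 1 library was left out.

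**Figure D1:**
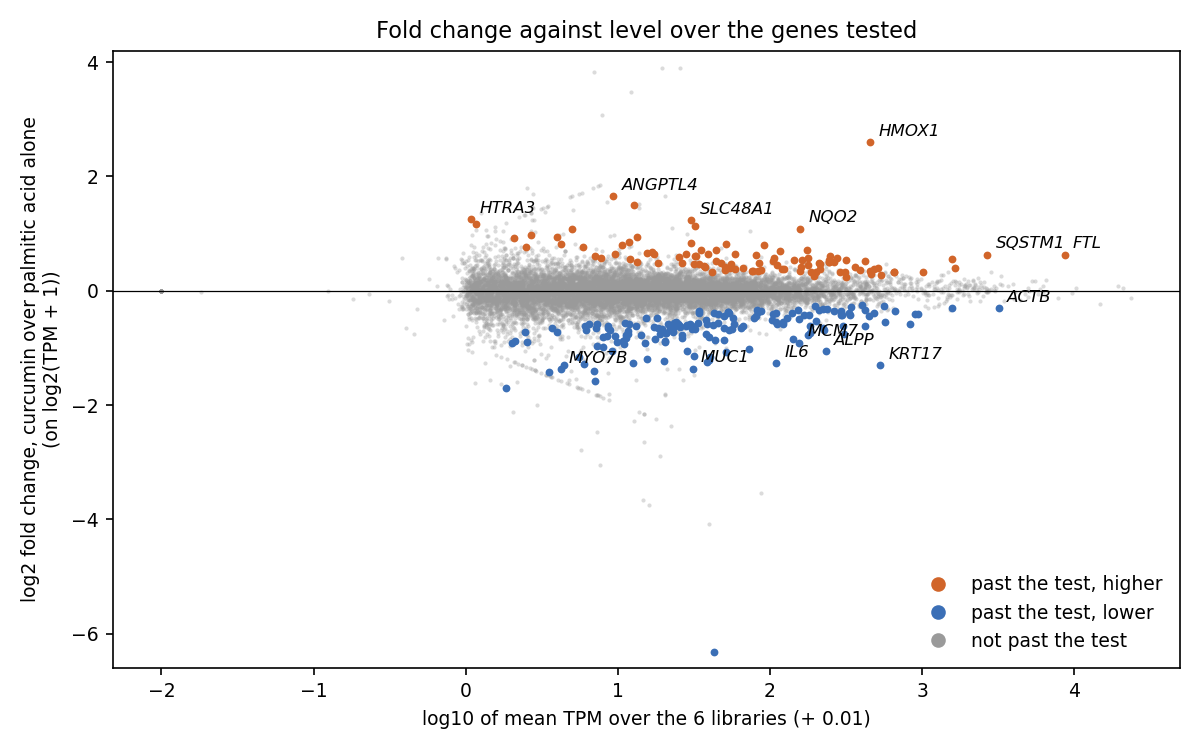
Each point is one of the genes tested, with the log10 of its mean TPM over the 6 libraries on the x axis and its log2 fold change, curcumin over palmitic acid alone, on the y axis. Orange and blue points passed the test. HMOX1, at 2.60, stands above all other genes past the test, and the lowest blue point is a gene without a symbol that was listed at 0 in the 3 curcumin libraries.

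Heme and iron. HMOX1 encodes heme oxygenase 1, which opens the heme ring to biliverdin, carbon monoxide and iron. It stood at 143, 114 and 129.8 TPM with palmitic acid alone and 814, 776 and 760.2 TPM after curcumin. The groups were far apart, with a fold change of 6.07 (2.60 on the log2 scale, SE 0.08, adjusted p = 6.51e-07). Its gene is on chromosome 22, plus strand, from 35380361 to 35394214 (GENCODE release 29, GRCh38). SLC48A1, a transporter that moves heme out of the lysosome, had 17.8, 18.5 and 16.6 TPM with palmitic acid alone and 43.7, 43.1 and 42.3 TPM after curcumin. Its rise was 2.44-fold (adjusted p = 8.55e-05), with the gene on chromosome 12, plus strand, from 47753916 to 47782753. BLVRB, a biliverdin reductase that takes the next step after heme oxygenase, rose 1.48-fold, from 222 ± 29.3 to 329 ± 21.5 TPM (mean and SD, n = 3 each, as for all later pairs of means; adjusted p = 0.0192). ABCB6, a porphyrin transporter, rose 1.44-fold (adjusted p = 0.0264).

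Ferritin, the iron storage shell, is built of light and heavy chains. FTL, the light chain, had 6692, 6365 and 7261 TPM with palmitic acid alone and 10819, 9701 and 10992 TPM after curcumin. All curcumin libraries were above all palmitic acid libraries, and at 3732 TPM this was the largest gain of any gene in the table's own unit (1.55-fold, adjusted p = 0.00315). FTL has processed pseudogenes, between which and FTL the authors' estimation could divide reads. FTH1, the heavy chain, had 17548, 17321 and 27090 TPM with palmitic acid alone and 22611, 16305 and 24435 TPM after curcumin. Those values overlapped, with a log2 fold change of 0.04 (SE 0.20, adjusted p = 0.966); the difference between the chains was not tested. TFRC, the transferrin receptor, had a log2 fold change of −0.19 (SE 0.22) and did not pass. The median log2 fold change of 27 measured heme and iron genes was 0.08 against −0.02 over all genes. Of them 5 passed, all higher, against 0.759% of all genes. Leaving out 1 library at a time left 3 to 5 of them, the fewest without replicates 1 or 2 of palmitic acid alone, 1 or 3 of curcumin, or 2 or 3 of curcumin with CuCl2. FTL lost the call with only the 6 libraries compared or with median-of-ratios scaling, with an adjusted p of at most 0.0828, and BLVRB and ABCB6 reached 0.140 and 0.146.

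**Figure D2:**
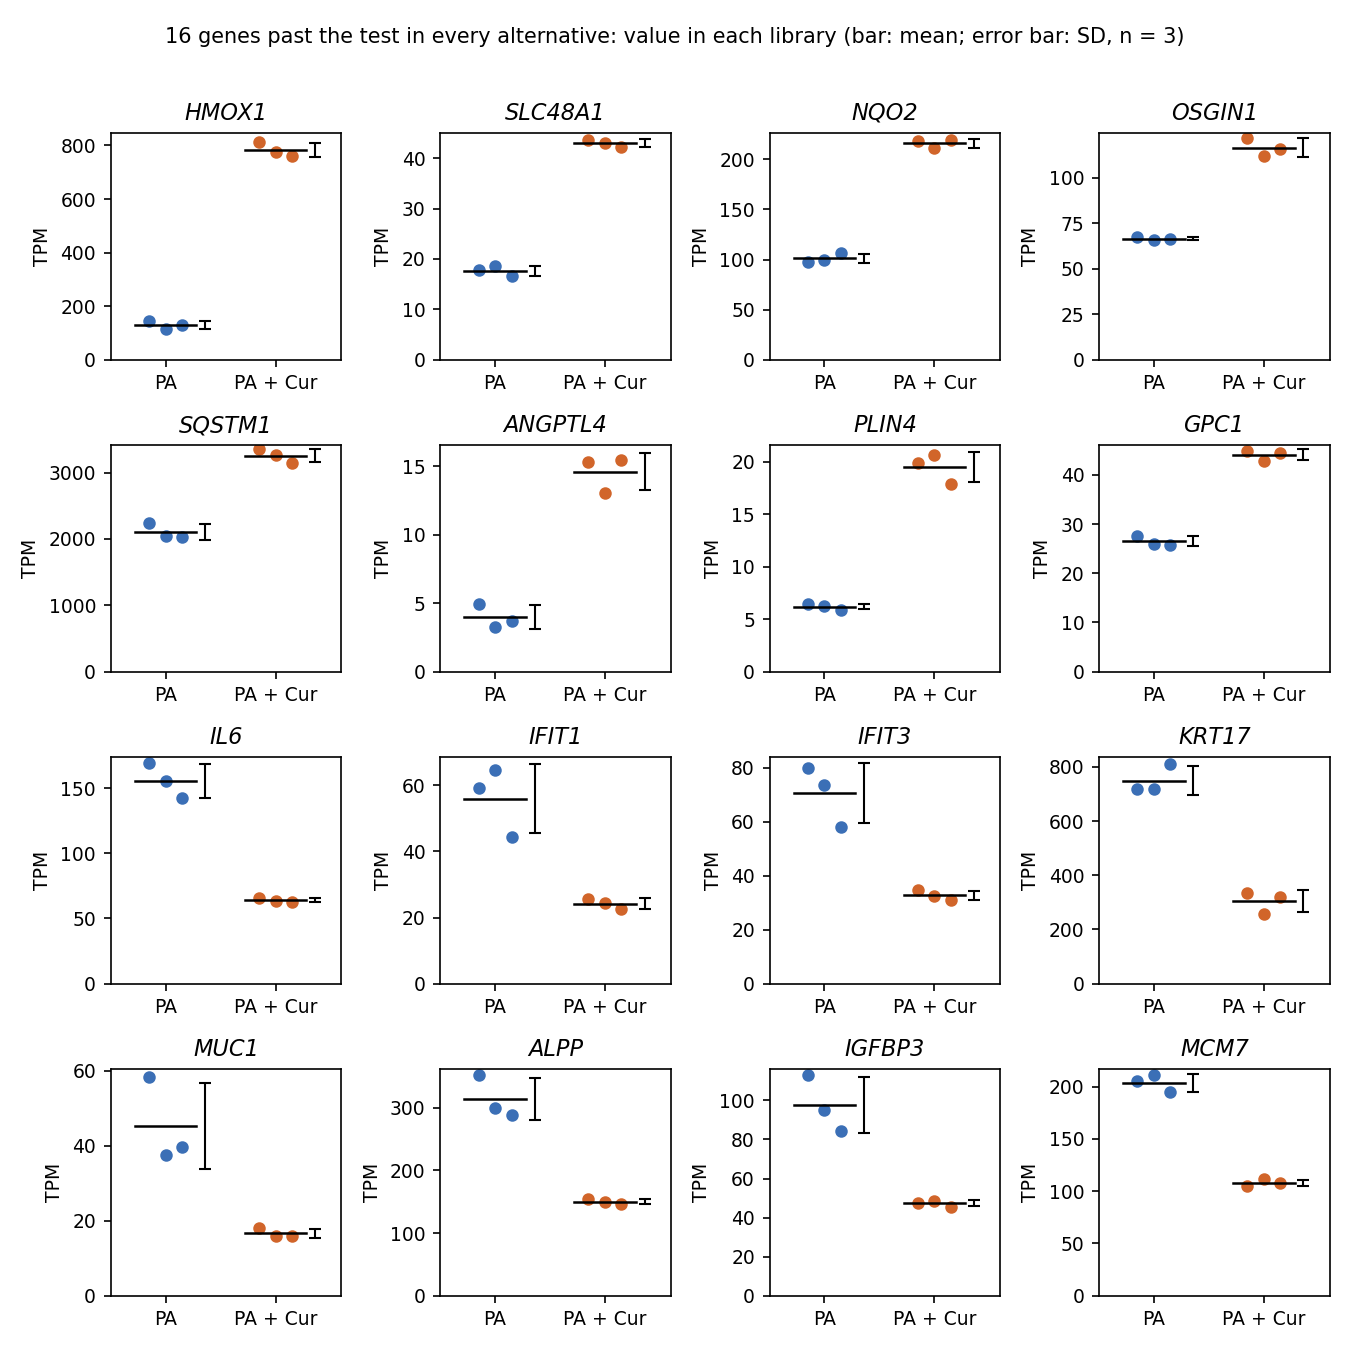
Points are TPM in each of the 3 libraries with palmitic acid alone (PA, blue) and the 3 with curcumin added (PA + Cur, orange) for 16 genes, with each y axis starting at 0; black lines are means and error bars SD (n = 3). In every panel the 2 groups stand apart, as for HMOX1 from 129 to 783 TPM and IL6 from 156 to 64.0 TPM.

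NRF2 targets. Of 38 genes listed as targets of NRF2, 37 were tested and 19 passed, all higher, against 0.759% of all genes. The median log2 fold change of the 37 was 0.49 and 36 were positive. No overlap between groups, in the direction of a rise, was seen in 28, against 8.15% of all genes. The exception in sign was ABCC4, an exporter, at −0.12 (SE 0.24). The list shares HMOX1, SLC48A1, FTL and other members with the groups described here, so the counts are not separate evidence. Like every list here, it was chosen with earlier results of these data known. Its share beside that of all genes is a description and not a test. Between 9 members (without replicate 1 of curcumin) and 21 (without replicate 3 of palmitic acid alone) passed when 1 library was left out, and 6 passed with only the 6 libraries compared. Without the trend of variance with level 13 passed, and 31 with mitochondrial share as a covariate.

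**Figure D3:**
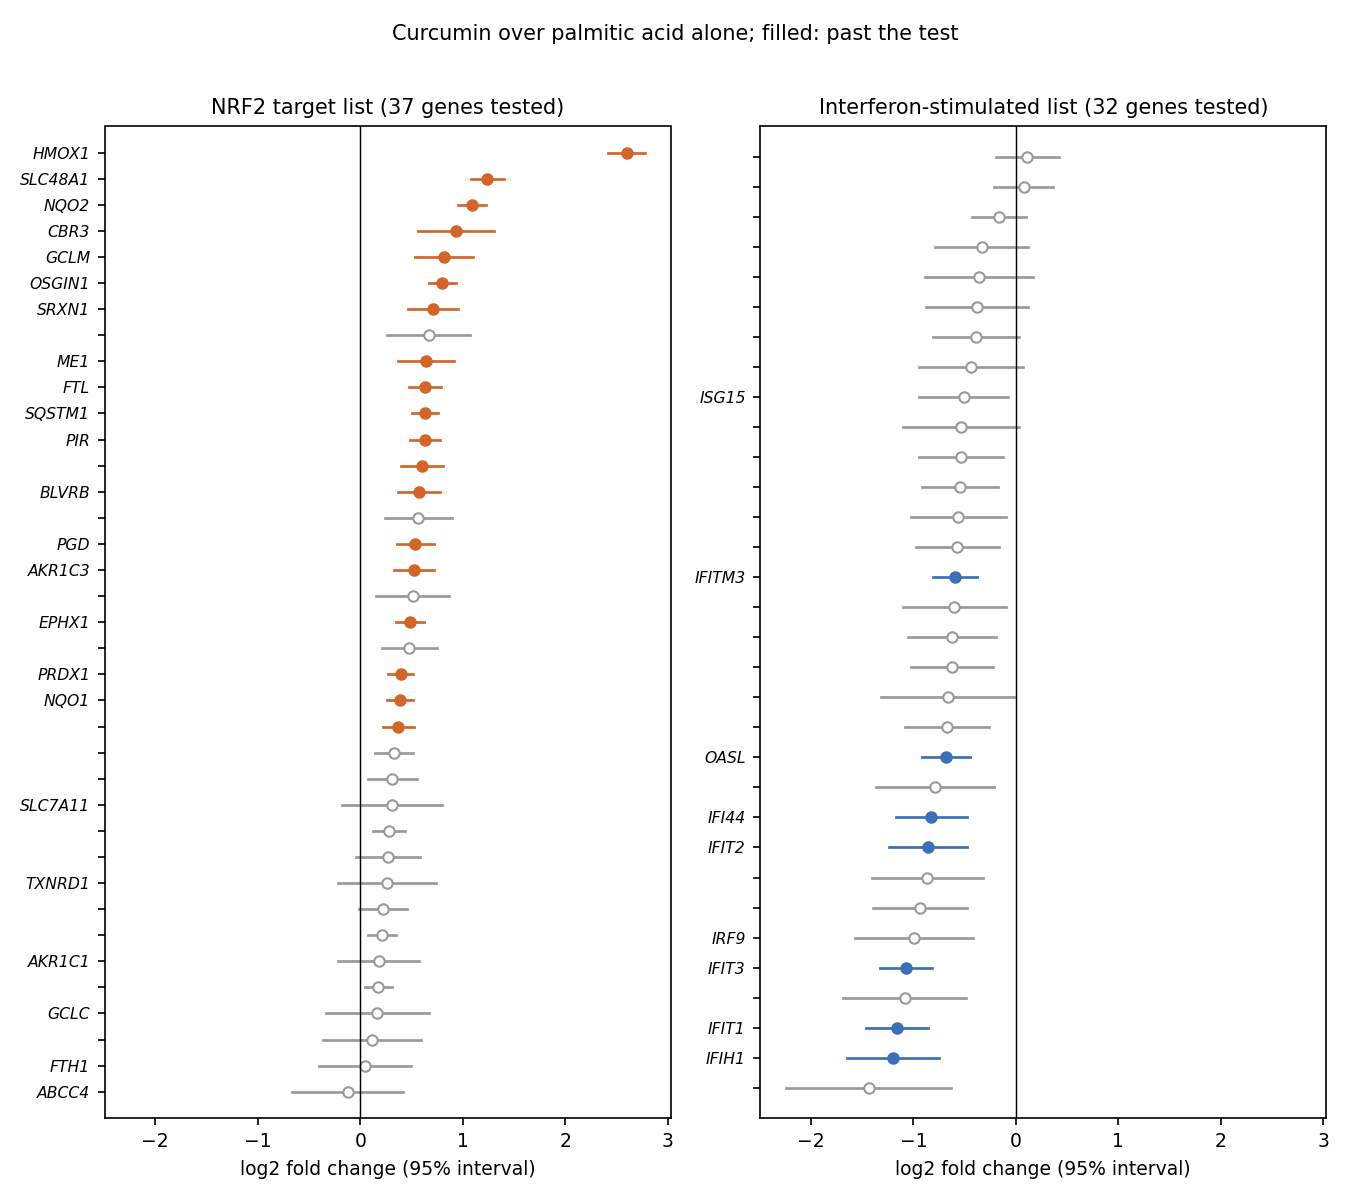
Log2 fold changes of curcumin over palmitic acid alone with 95% confidence intervals for 37 NRF2 targets (left) and 32 interferon-stimulated genes (right), ordered by size; filled circles passed the test and genes described in the text are labelled. In the left panel 36 of 37 points lie above 0 and 19 are filled, and in the right panel 30 of 32 lie below 0 and 7 are filled.

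An antioxidant response element core, TGACNNNGC on either strand, was looked for in the 250 bases before each RefSeq gene start (GRCh38.p14). Such sequence was at hand for 9687 of the genes tested, of which 16.1% held the core. It was present in 17 of 74 higher genes (23.0%), 13 of 106 lower genes (12.3%) and 7 of 26 NRF2 targets (26.9%). These shares are descriptions: a match is not a binding site, and a window without one says nothing about sites elsewhere. The core can overlap the AP-1 motif TGANTCA. Windows of 3 genes past the test, each with its core in capitals and read 5′ to 3′ on the gene's strand, show how the match varies. In GCLM and PGD the core is on the opposite strand, so its reverse complement is printed, and in ME1 the same bases also match the AP-1 motif. GCLM encodes the modifier subunit of glutamate-cysteine ligase (chr1:93909436-93909484, minus strand), ME1 malic enzyme (chr6:83431160-83431208, minus strand) and PGD a pentose phosphate dehydrogenase (chr1:10398843-10398891, plus strand).
GCLM: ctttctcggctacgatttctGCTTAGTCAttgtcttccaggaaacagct
ME1: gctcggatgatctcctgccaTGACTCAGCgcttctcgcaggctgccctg
PGD: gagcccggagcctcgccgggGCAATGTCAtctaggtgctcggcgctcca

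Glutathione and thioredoxin. GCLM had 42.6, 37.7 and 31.3 TPM with palmitic acid alone and 63.7, 76.6 and 58.3 TPM after curcumin. That was a 1.78-fold rise with no overlap (adjusted p = 0.0164). GCLC, the catalytic subunit of the same enzyme, had 38.7, 30.6 and 21.4 TPM with palmitic acid alone and 28.4, 45.1 and 28.3 TPM after curcumin. The GCLC values overlapped, with a log2 fold change of 0.17 (SE 0.22, adjusted p = 0.848), and the difference between the subunits was not tested. SLC7A11, the cystine importer that supplies glutathione synthesis, had a log2 fold change of 0.31 (SE 0.22, adjusted p = 0.607). CHAC1, which degrades glutathione, rose 1.42-fold, from 39.2 ± 1.77 to 55.6 ± 1.11 TPM (adjusted p = 0.00755). SRXN1, a sulfiredoxin that repairs oxidised peroxiredoxins, rose 1.64-fold (adjusted p = 0.0164). PRDX1, its abundant substrate, rose from 1418 ± 71.1 to 1863 ± 22.6 TPM (adjusted p = 0.00814). TXNRD1, thioredoxin reductase, had a log2 fold change of 0.26 (SE 0.21) and did not pass.

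The microsomal glutathione transferase genes MGST1, MGST2 and MGST3 all passed, at 1.32, 1.33 and 1.46-fold. CAT, catalase, rose 1.65-fold, and SOD1, the cytosolic superoxide dismutase, 1.27-fold. TXNIP, a thioredoxin-binding protein that also limits glucose uptake, moved the other way. It had 45.6, 51.6 and 35.1 TPM with palmitic acid alone and 16.8, 22.6 and 18.4 TPM after curcumin. All curcumin libraries were below all others, at 0.436 of the level with palmitic acid alone (log2 −1.15, SE 0.15, adjusted p = 0.00744). Of 38 measured members of the glutathione and thioredoxin list, 9 rose and 1 fell, against 0.759% and 1.21% of all genes. The list median was 0.19. Without replicate 1 or replicate 3 of curcumin 1 member passed as higher, and without replicate 3 of palmitic acid alone there were 13. With only the 6 libraries compared no member passed, TXNIP included.

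Quinone reduction and NADPH. NQO2, a quinone reductase that uses dihydronicotinamide riboside, had 97.7, 99.3 and 106 TPM with palmitic acid alone and 218, 211 and 219 TPM after curcumin. The groups were clearly separate and the rise was 2.14-fold (adjusted p = 8.30e-05), on chromosome 6, plus strand, from 2987987 to 3028869. NQO1, the NADPH-dependent relative and textbook NRF2 target, rose from 421 ± 20.96 to 551 ± 12.2 TPM (1.31-fold, adjusted p = 0.0127). OSGIN1, an oxidative stress induced growth inhibitor, had 67.4, 65.5 and 66.5 TPM with palmitic acid alone and 122, 112 and 116 TPM after curcumin. Its rise was 1.75-fold (adjusted p = 2.87e-04). PIR, an iron-binding nuclear protein, rose 1.56-fold (adjusted p = 0.00227). POR, the reductase that passes electrons to cytochromes P450 and to heme oxygenase, had 213, 215 and 223 TPM with palmitic acid alone and 312, 313 and 297 TPM after curcumin. All 3 curcumin values were above the others (1.42-fold, adjusted p = 0.00266).

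Further reductases and aldehyde-handling genes also passed. CBR3, a carbonyl reductase, rose 1.99-fold, AKR1C3, an aldo-keto reductase, 1.44-fold, and ALDH3A2, a fatty aldehyde dehydrogenase, 1.55-fold. EPHX1, microsomal epoxide hydrolase, rose 1.41-fold (adjusted p = 0.00565). AKR1C1 had a log2 fold change of 0.18 (SE 0.17) and did not pass; near-identical AKR1C genes can share reads. AIFM2, a CoQ reductase known to protect from ferroptosis, rose 1.39-fold (adjusted p = 0.0192). In the list of 26 measured quinone and carbonyl reductases 9 rose and none fell, against 0.759% and 1.21% of all genes. The list median was 0.21. NADPH supply had 4 of 15 higher (0.759% over all genes), among them PGD at 1.45-fold and ME1 at 1.57-fold. PHGDH, which opens serine synthesis, rose from 203 ± 6.66 to 288 ± 8.58 TPM (adjusted p = 0.00351), and ASNS, asparagine synthetase, 1.45-fold (adjusted p = 0.00814). Leaving out 1 library gave 3 (without replicate 3 of curcumin) to 9 quinone and carbonyl reductases. It gave 1 to 5 NADPH genes, the fewest without replicate 2 of palmitic acid alone or any replicate of curcumin and the most without replicate 3 of palmitic acid alone.

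Lysosome, autophagy and proteasome. SQSTM1, which encodes p62, a cargo receptor of autophagy that also binds KEAP1, had 2241, 2049 and 2022 TPM with palmitic acid alone and 3351, 3262 and 3151 TPM after curcumin. That was a gain of 1151 TPM and 1.55-fold (adjusted p = 0.00106). CTSL, a lysosomal cysteine protease, had 346, 354 and 333 TPM with palmitic acid alone and 506, 497 and 485 TPM after curcumin. Its groups did not overlap (1.44-fold, adjusted p = 0.00207). GLA, the lysosomal alpha-galactosidase, rose from 143 ± 9.95 to 212 ± 2.08 TPM (adjusted p = 0.00351), CTSD, cathepsin D, 1.32-fold and DNASE2, a lysosomal nuclease, 1.40-fold. Of 40 measured autophagy and lysosome genes, with a median of 0.07, 4 passed, all higher, against 0.759% of all genes. With 1 library left out 3 or 4 passed as higher, and without replicate 3 of palmitic acid alone 1 other member passed as lower. Overlapping genes on the other strand are annotated at SQSTM1 (MRNIP and MGAT4B) and GLA (RPL36A-HNRNPH2), and SLC48A1, POR and PLIN4 each overlap such a gene too. Whether counting used strand is not given in the sources used here.

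Proteasome subunit genes gave small shifts in 1 direction: all 33 had a positive log2 fold change, with a median of 0.18 and a range from 0.03 to 0.36. Of these 3 passed as higher (PSMB1, PSMB4 and PSMD4), and 15 were higher with no overlap, against 0.759% and 8.15% of all genes. PSMB4 rose from 577 ± 47.0 to 725 ± 23.8 TPM, 1.26-fold (adjusted p = 0.0423). UFD1, a partner of the unfoldase that feeds the proteasome, rose 1.27-fold (adjusted p = 0.0150). No proteasome gene passed when a library other than replicate 3 of palmitic acid alone was left out, and 10 passed without that library. None passed with only the 6 libraries compared, and 20 with mitochondrial share as a covariate.

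Lipid genes. ANGPTL4, a secreted inhibitor of lipoprotein lipase and a target of the fatty acid sensing PPAR receptors, had 4.96, 3.28 and 3.74 TPM with palmitic acid alone and 15.3, 13.1 and 15.5 TPM after curcumin. The lowest curcumin library was well above the highest of the others, and the rise was 3.66-fold (adjusted p = 0.00104). PLIN4, a lipid droplet coat protein, had 6.42, 6.26 and 5.90 TPM with palmitic acid alone and 19.9, 20.6 and 17.9 TPM after curcumin. That was 3.14-fold (adjusted p = 1.85e-04), on chromosome 19, minus strand, from 4502180 to 4518465. Of 31 measured genes of PPAR response and fatty acid oxidation, 3 rose and 1 fell, against 0.759% and 1.21% of all genes. In that list 25 were positive, with a median of 0.22. The rises were ANGPTL4, ETFA, an electron carrier from fatty acid oxidation (1.31-fold), and DECR1, a dienoyl-CoA reductase (1.32-fold), and the fall was TXNIP. When any 1 replicate of curcumin or of curcumin with CuCl2 was left out, ANGPTL4 was the 1 member of that list that passed as higher. NR1H3, the oxysterol receptor LXR alpha, rose 1.52-fold (adjusted p = 0.0268), and MGLL, monoacylglycerol lipase, fell from 30.4 ± 4.29 to 19.7 ± 1.58 TPM (adjusted p = 0.0321). MGLL kept its call without replicate 3 of palmitic acid alone and lost it when any other library was left out (adjusted p at most 0.166 over the alternatives). NR1H3 lost its call when any library other than replicate 3 of palmitic acid alone or replicate 2 of curcumin with CuCl2 was left out, reaching 0.140.

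Counts of genes that make lipid stand beside shares over all genes of 0.759% higher and 1.21% lower. Lists this short can hold few calls or none at those shares. Among 22 measured genes of fatty acid and triglyceride synthesis 1 passed, ME1, and FASN, fatty acid synthase, had 103, 94.0 and 83.2 TPM with palmitic acid alone and 94.8, 83.2 and 86.9 TPM after curcumin. Those values overlapped (log2 −0.08, SE 0.10, 95% interval −0.29 to 0.14). None of 26 cholesterol synthesis genes passed, with a median of 0.04. Using mitochondrial share as a covariate, 4 cholesterol genes were higher and 1 lower, and 5 genes of fatty acid and triglyceride synthesis were higher.

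GPC1, a cell surface heparan sulfate proteoglycan, rose from 26.5 ± 0.994 to 44.1 ± 1.09 TPM (1.66-fold, adjusted p = 0.00315). HTRA3, a secreted serine protease, was barely detected, at 0.140, 0.270 and 0.260 TPM with palmitic acid alone and 2.04, 1.68 and 2.04 TPM after curcumin, and its fold rests on values below 1 TPM in the group with palmitic acid alone. ID1 and ID3, inhibitors of basic helix-loop-helix factors that respond to BMP signals, rose 1.62-fold and 1.41-fold (adjusted p = 0.00814 and 0.0221). ETV4 and ETV5, ETS factors downstream of ERK, rose 1.57-fold and 1.42-fold, with adjusted p = 0.0359 and 0.0267. S100P, a calcium-binding protein, had 1056, 1283 and 1538 TPM with palmitic acid alone and 1988, 1769 and 1850 TPM after curcumin, and the spread among palmitic acid libraries was wide (adjusted p = 0.0499). Over all alternatives the largest adjusted p was 0.0948 for ID1, 0.146 for ID3, 0.167 for ETV4, 0.146 for ETV5 and 0.217 for S100P.

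**Figure D4:**
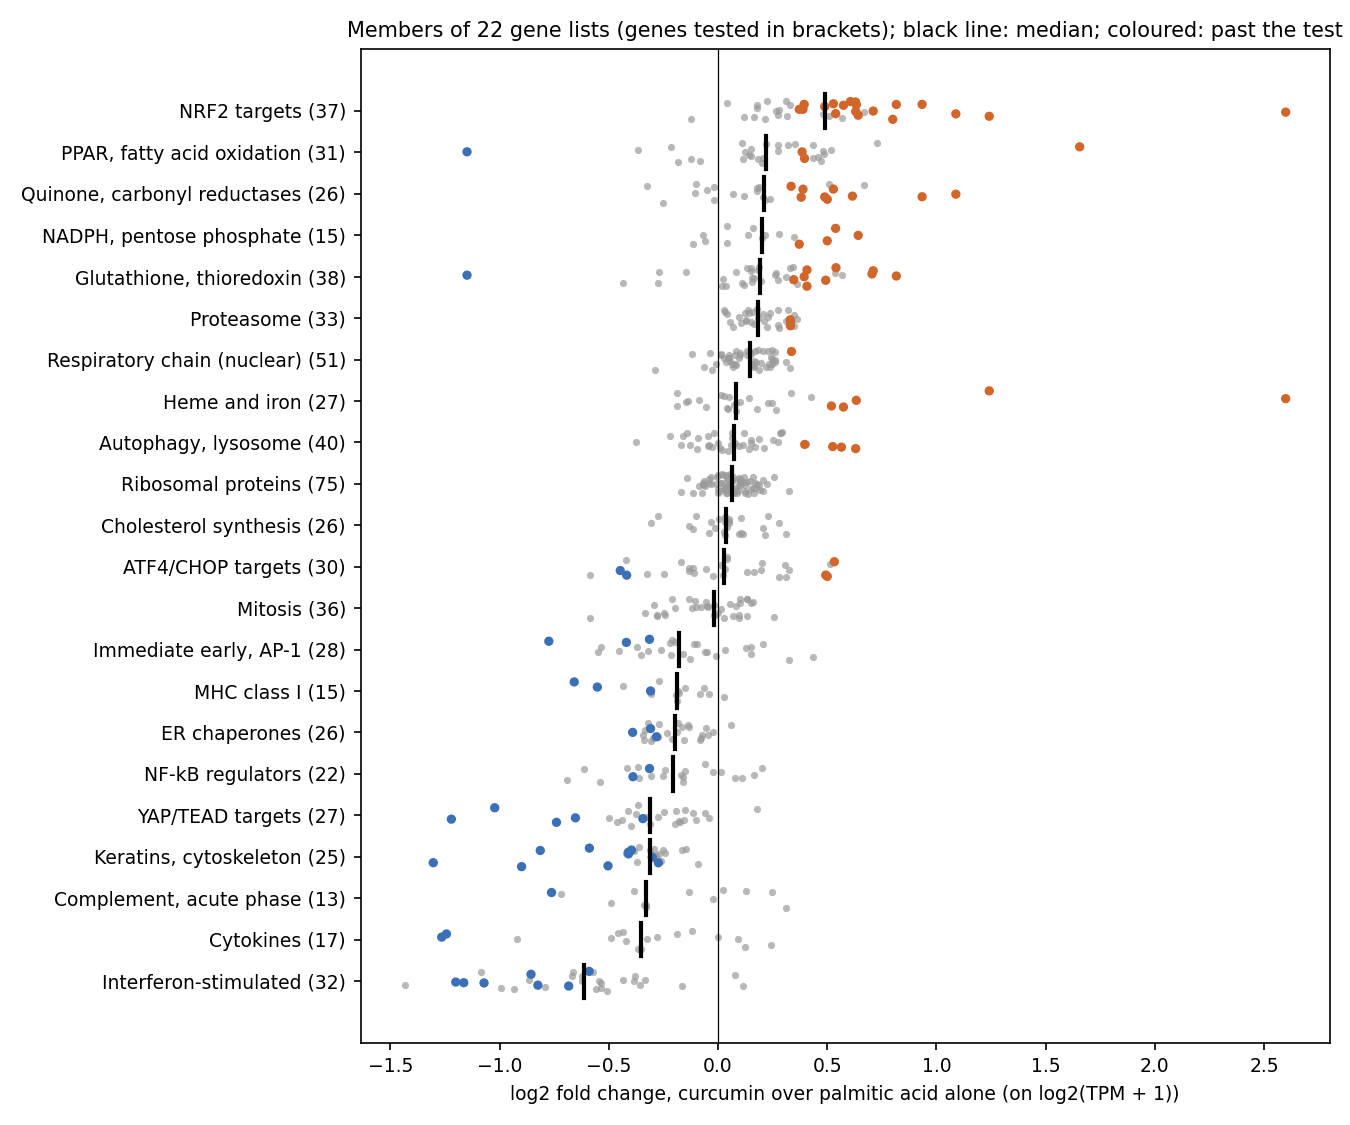
Each point is the log2 fold change of a list member, curcumin over palmitic acid alone, for 22 lists with the number of genes tested in brackets; black lines are medians and coloured points passed the test. Medians run from 0.49 for NRF2 targets to −0.61 for interferon-stimulated genes.

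Cytokines, NF-kB and complement. IL6, an inflammatory cytokine, had 169, 155 and 143 TPM with palmitic acid alone and 65.8, 63.6 and 62.6 TPM after curcumin. The curcumin libraries were close together and all below the others, at 0.411 of the level with palmitic acid alone (log2 −1.27, SE 0.08, adjusted p = 8.55e-05). IL6 lies on chromosome 7, plus strand, from 22725884 to 22732002. IL32, a proinflammatory cytokine, fell from 54.3 ± 7.17 to 22.5 ± 4.23 TPM (adjusted p = 0.00531). These were the 2 of 17 measured cytokine and chemokine genes past the test, against 1.21% of all genes lower, and the median was −0.35. Both passed whichever library was left out, and IL32 lost the call with only the 6 libraries compared (adjusted p = 0.0521). CCL2, a monocyte attractant, had 11.9, 8.02 and 9.70 TPM with palmitic acid alone and 4.97, 6.44 and 3.12 TPM after curcumin; the groups did not overlap but the gene did not pass (log2 −0.92, SE 0.27, adjusted p = 0.147). CXCL8, another chemokine, overlapped at 1.92, 2.97 and 1.14 TPM with palmitic acid alone and 1.25, 1.67 and 1.32 TPM after curcumin.

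Of 22 measured NF-kB regulators and adhesion genes 2 passed, both lower, against 1.21% of all genes. They were TNIP1, an inhibitor of NF-kB signalling, and IER3, an early response gene. IER3 fell from 264 ± 6.77 to 212 ± 8.96 TPM (adjusted p = 0.0322) and TNIP1 from 48.4 ± 3.73 to 36.7 ± 2.17 TPM (adjusted p = 0.0465). When any 1 library other than replicate 3 of palmitic acid alone was left out, no member of the list passed, and 5 passed without that one. C3, the central complement component, fell from 47.7 ± 3.25 to 27.8 ± 3.04 TPM (adjusted p = 0.00640). It was the 1 call among 13 measured complement and acute phase genes, against 1.21% of all genes lower. C4BPB, which is not on that list, encodes the beta chain of C4b-binding protein, a complement inhibitor. It had 492, 516 and 514 TPM with palmitic acid alone and 354, 318 and 320.0 TPM after curcumin. The groups stood apart, at 0.651 of the level with palmitic acid alone (adjusted p = 0.00262). CD70, a TNF family ligand, fell from 388 ± 55.9 to 229.6 ± 27.8 TPM (adjusted p = 0.0164). C3 lost the call with only the 6 libraries compared (adjusted p = 0.0742), and CD70 reached 0.129.

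Interferon-stimulated genes. IFIT1, whose protein binds viral RNA that lacks the host cap methylation, had 59.2, 64.6 and 44.2 TPM with palmitic acid alone and 25.7, 24.3 and 22.4 TPM after curcumin. IFIT3, its partner, had 79.8, 73.7 and 58.2 TPM with palmitic acid alone and 34.6, 32.6 and 31.2 TPM after curcumin. In both genes the curcumin libraries were tightly grouped below 3 more scattered palmitic acid libraries, at 0.432 and 0.465 of the level with palmitic acid alone (adjusted p = 0.00398 and 0.00266). The neighbouring IFIT2 fell to 0.538 of that level (adjusted p = 0.0392). These 3 genes lie on chromosome 10 between 89283694 and 89406486, inside the annotated span of LIPA on the other strand, which had a log2 fold change of −0.29 (SE 0.14). IFIH1, the RNA sensor MDA5, fell from 22.2 ± 6.23 to 8.85 ± 0.445 TPM (adjusted p = 0.0217). OASL, IFI44 and IFITM3, all interferon-induced, fell to 0.621, 0.533 and 0.667 of the level with palmitic acid alone, with adjusted p = 0.0159, 0.0317 and 0.0195; IFITM3 has near-identical relatives.

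Of 32 measured interferon-stimulated genes 7 passed, all lower, and 22 were lower with no overlap, against 1.21% and 8.61% of all genes. Negative fold changes numbered 30, against 7196 of the 13443 genes tested, and the list median was −0.61. IRF9, a subunit of the factor that binds the ISRE, stood at 36.5, 60.6 and 40.3 TPM with palmitic acid alone and 28.9, 18.7 and 19.6 TPM after curcumin. Its curcumin libraries were all below the others, with wide spread in both groups, and it did not pass (adjusted p = 0.0958). ISG15, a ubiquitin-like modifier, overlapped between groups, with a log2 fold change of −0.51 (SE 0.19). Leaving out replicate 2 of palmitic acid alone or replicate 3 of curcumin left 2 members, leaving out replicate 3 of palmitic acid alone gave 14, and 2 passed with only the 6 libraries compared. IFIT1 and IFIT3 passed in every alternative.

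In the same 250 bases before gene starts, an ISRE, taken as 2 copies of GAAA spaced by 2 bases on either strand, was found in 3.06% of 9687 genes. It was found in 18 of 25 interferon-stimulated genes with sequence (72.0%), 5 of 11 MHC class I genes (45.5%), 8 of 106 lower genes (7.55%) and 4 of 74 higher genes (5.41%). The list was drawn from genes known to respond to interferon, so its share describes the list and not the response to curcumin. Windows from IFIT1 (chr10:89392487-89392549, plus strand), IFI44 (chr1:78649751-78649788, plus strand) and the upstream start of IFIT3 (chr10:89327821-89327904, plus strand) are printed because these 3 genes fell and hold the motif, with matches in capitals. All are on the opposite strand and so appear as their reverse complement.
IFIT1: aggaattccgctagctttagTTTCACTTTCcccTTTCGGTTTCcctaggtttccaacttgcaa
IFIT3: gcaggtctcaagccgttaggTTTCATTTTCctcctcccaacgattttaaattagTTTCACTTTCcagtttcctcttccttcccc
IFI44: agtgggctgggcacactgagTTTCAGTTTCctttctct

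In IFIT1 the 2 matches stand 3 bases apart, and IFI44 has 1 match. Genes of antigen presentation had mostly negative fold changes. HLA-B, a class I heavy chain, fell from 145 ± 4.12 to 98.9 ± 11.1 TPM (adjusted p = 0.0134), with the caveat that HLA genes share reads. TAP1, the peptide transporter, had 26.5, 31.6 and 25.8 TPM with palmitic acid alone and 17.2, 19.1 and 15.7 TPM after curcumin. The groups did not overlap (0.620 of the level with palmitic acid alone, adjusted p = 0.0195). Of 15 measured class I genes 3 passed (HLA-B, TAP1 and CALR, a chaperone that loads them), all lower, against 1.21% of all genes. Among the 15, 14 were negative and the median was −0.19. No member passed without replicate 3 of curcumin and 6 without replicate 3 of palmitic acid alone.

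Keratins and the actin cytoskeleton. KRT17, a keratin of basal and stressed epithelium, had 718, 717 and 811 TPM with palmitic acid alone and 336, 258 and 318 TPM after curcumin. All curcumin libraries were below the others by a wide margin, at 0.406 of the level with palmitic acid alone (log2 −1.30, SE 0.10, adjusted p = 5.30e-04). It lies on chromosome 17, minus strand, from 41619441 to 41624842, and it has close pseudogenes that could share its reads. KRT8 and KRT18, the keratin pair of simple epithelium, fell from 1077 ± 44.2 to 811 ± 50.4 TPM and from 1025 ± 99.5 to 769.7 ± 37.6 TPM (adjusted p = 0.0150 and 0.0298). Their annotated loci overlap on opposite strands. KRT7 had 1277, 1360 and 1545 TPM with palmitic acid alone and 1229, 1022 and 1214 TPM after curcumin, without overlap, and did not pass (adjusted p = 0.186). Among actin genes, ACTB, often used as a reference gene, had 3577, 3418 and 3573 TPM with palmitic acid alone and 2910, 2722 and 2949 TPM after curcumin. This was the largest loss of TPM among genes past the test, −663, although the ratio was 0.812 (adjusted p = 0.0277). TAGLN, the smooth muscle protein SM22, fell to 0.491 of its level (adjusted p = 0.0265), and the tropomyosin genes TPM1 and TPM2 to 0.658 and 0.760. FLNA, an actin crosslinker, and ZYX, zyxin of focal adhesions, fell to 0.828 and 0.702.

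In the list of 25 measured keratin and cytoskeleton genes 10 passed, all lower, and 19 were lower without overlap. Over all genes those shares were 1.21% and 8.61%. All 25 fold changes were negative, around a median of −0.31. VIM, vimentin, had the smallest change (log2 −0.09, SE 0.05). The count was 1, KRT17, without replicate 3 of curcumin or with only the 6 libraries compared, and 14 without replicate 3 of palmitic acid alone. The largest adjusted p over the alternatives was 0.308 for ACTB, 0.166 for KRT8 and 0.232 for KRT18.

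YAP targets and secreted regulators. YAP and TAZ are coactivators that bind TEAD factors and respond to tension in the cytoskeleton. ANKRD1, a nuclear repeat protein among their targets, had 67.2, 57.8 and 43.4 TPM with palmitic acid alone and 21.8, 25.6 and 22.2 TPM after curcumin. That was a fall to 0.413 of its level (adjusted p = 0.00416). CCN1, a matricellular protein, fell from 231 ± 28.4 to 137 ± 9.35 TPM (adjusted p = 0.00485). CCN2, its close relative and another standard target, had 19.2, 20.0 and 14.1 TPM with palmitic acid alone and 16.8, 18.3 and 16.0 TPM after curcumin. These values overlapped (log2 −0.04, SE 0.14, adjusted p = 0.951); the difference between CCN1 and CCN2 was not tested. IGFBP3, which binds insulin-like growth factors, had 113, 95.3 and 84.5 TPM with palmitic acid alone and 47.6, 48.5 and 45.5 TPM after curcumin, at 0.484 of its level (adjusted p = 0.00227). Of 27 measured YAP and TEAD targets 5 passed, all lower, against 1.21% of all genes. Negative fold changes were seen in 26, with a median of −0.31 over the 27. With 1 library left out 3 to 8 passed, the most without replicate 3 of palmitic acid alone, and 1 passed with only the 6 libraries compared. In that last setting the adjusted p was 0.0635 for ANKRD1 and 0.0690 for CCN1.

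Surface and enzyme genes of epithelium. MUC1, a membrane mucin, had 58.5, 37.6 and 39.8 TPM with palmitic acid alone and 18.1, 16.0 and 16.0 TPM after curcumin. Replicate 1 of palmitic acid alone was the highest, and all curcumin libraries lay below all others (0.368 of the level, adjusted p = 0.00369). ALPP, placental alkaline phosphatase, had 352, 299.8 and 289 TPM with palmitic acid alone and 154, 150.3 and 146 TPM after curcumin. That was 0.479 of its level (adjusted p = 2.87e-04), with the reservation that ALPG is nearly identical. CDA, cytidine deaminase, fell from 273 ± 13.6 to 173 ± 10.3 TPM (adjusted p = 0.00323) and WFDC1, a secreted protease inhibitor domain protein, from 56.3 ± 5.77 to 30.5 ± 1.95 TPM (adjusted p = 0.00288). MYO7B, a microvillar myosin, fell to 0.292 of its level and NEURL1, a ubiquitin ligase, to 0.407 (adjusted p = 0.00545 and 0.00106). EHD1, an endocytic recycling protein, and CTDSP1, a phosphatase, fell to 0.622 and 0.468. LYPD3, a GPI-anchored surface protein, went the other way, from 8.08 ± 0.756 to 15.5 ± 0.817 TPM (adjusted p = 0.00483). In the list of 21 measured mucin and surface genes 3 were lower and 1 higher, against 1.21% and 0.759% of all genes. Without replicate 3 of palmitic acid alone 6 were lower, and without any other library 2 or 3 were.

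Transcription and the cell cycle. JUND, an AP-1 subunit, had 244, 201 and 225 TPM with palmitic acid alone and 139, 119 and 132 TPM after curcumin. The fall was to 0.582 of its level (adjusted p = 0.00481), with MYC and IER3 the other calls among 28 measured immediate early genes. All 3 were lower, against 1.21% of all genes. MYC fell from 192 ± 20.9 to 143 ± 6.72 TPM (adjusted p = 0.0412, at most 0.174 over the alternatives), and when any 1 library other than replicate 3 of palmitic acid alone was left out, JUND was the 1 call of the list. MCM7, a subunit of the helicase that unwinds replication origins, had 205, 211 and 194 TPM with palmitic acid alone and 105, 111 and 108 TPM after curcumin. The groups did not overlap, at 0.531 of its level (log2 −0.91, SE 0.06, adjusted p = 2.73e-04), and MCM7 passed in every alternative. Among the other helicase subunits, MCM2 had a log2 fold change of −0.09 (SE 0.10), MCM3 0.24 (SE 0.11), MCM4 0.03 (SE 0.19), MCM5 0.10 (SE 0.07) and MCM6 0.26 (SE 0.16). None of those passed, and the difference from MCM7 was not tested. MCM7 was the 1 call among 36 replication licensing genes, whose median was 0.10, against 1.21% of all genes lower. It lies on chromosome 7, minus strand, from 100092728 to 100101940, where AP4M1 overlaps it on the other strand. None of 36 mitosis genes passed, against 1.96% of all genes in either direction. Lists of this length can hold 1 call or none at such shares.

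Endoplasmic reticulum and stress. CALR, the chaperone calreticulin, had 1761, 1645 and 1773 TPM with palmitic acid alone and 1446, 1333 and 1402 TPM after curcumin. It fell to 0.807 of its level (adjusted p = 0.0268), as did HYOU1, a hypoxia-induced chaperone, to 0.760 and DNAJB11, a BiP cochaperone, to 0.822. Of 26 measured chaperone and unfolded protein response genes these 3 passed, against 1.21% of all genes called lower. Among the 26, 25 were negative with a median of −0.20. When any 1 library other than replicate 3 of palmitic acid alone was left out, none passed, and 8 passed without that one. A gene without a symbol overlaps DNAJB11 on the same strand. DDIT3, which encodes CHOP, the factor of the stress response to unfolded proteins, had 563, 568 and 664 TPM with palmitic acid alone and 619, 559 and 634 TPM after curcumin. Those values overlapped (log2 0.02, SE 0.08, 95% interval −0.16 to 0.19). ATF3 had 245, 246 and 165 TPM with palmitic acid alone and 142, 161 and 128 TPM after curcumin and did not pass (adjusted p = 0.0897). In the list of ATF4 and CHOP targets 3 of 30 were higher, ASNS, PHGDH and CHAC1, and 2 lower, PPP1R15A and STC2. The shares over all genes were 0.759% higher and 1.21% lower. With 1 library left out 2 or 3 were higher, 2 without replicate 3 of curcumin, and 0 to 3 were lower. None was lower without replicate 2 or 3 of curcumin, and leaving out replicate 3 of palmitic acid alone gave 3. The fit of just the 6 libraries compared had 1 higher and none lower.

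Several groups held no call, where 1.96% of all genes tested passed in either direction. Lists of this length can hold none at that share, so the absence alone does not set them apart. None passed among 75 ribosomal protein genes (median 0.06), 39 glycolysis and hypoxia genes (−0.02), 20 aminoacyl-tRNA synthetases (0.09), 24 histone genes (0.15), 15 genes of mitochondrial DNA (−0.10) and 35 metallothionein and metal genes (0.00), by limma with all 9 libraries. That absence depends on the setting: with mitochondrial share as a covariate 7 aminoacyl-tRNA synthetases passed as higher and 1 as lower. Of 51 nuclear genes of the respiratory chain 1 passed, as higher: NDUFB3, a complex I subunit. The shares over all genes were 0.759% higher and 1.96% in either direction, so 1 call does not set the list apart. The list median was 0.15 and 45 were positive. NDUFB3 (adjusted p = 0.0498) lost the call whichever library was left out except replicate 2 of palmitic acid alone, reaching 0.191 over the alternatives, and without replicate 3 of palmitic acid alone 6 others of the list passed as higher. At an unadjusted p under 0.05 these lists held 3 ribosomal genes, 10 glycolysis and hypoxia genes, 2 aminoacyl-tRNA synthetase genes, 7 histone genes, 1 mitochondrial DNA gene, 2 metal genes and 12 nuclear respiratory chain genes.

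In the table's own unit, the 102 higher genes together held 23405 ± 648 TPM with palmitic acid alone and 34082 ± 838 TPM after curcumin. The 162 lower genes held 26120 ± 792 and 18609 ± 785 TPM. FTL supplied 3732 TPM of the 10677 TPM gained by the higher genes. These sums use the genes the test selected and are descriptions. Next to them, the third group gave for the lead genes, with 20 µM curcumin and 5 µM CuCl2, 731 ± 11.5 TPM for HMOX1, 209 ± 8.20 TPM for NQO2, 67.2 ± 3.13 TPM for IL6, 329 ± 25.4 TPM for KRT17 and 59.6 ± 3.92 TPM for IGFBP3 (mean and SD, n = 3). Both curcumin groups share the same palmitic acid libraries, so no likeness between them is drawn from these values.

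**Figure D5:**
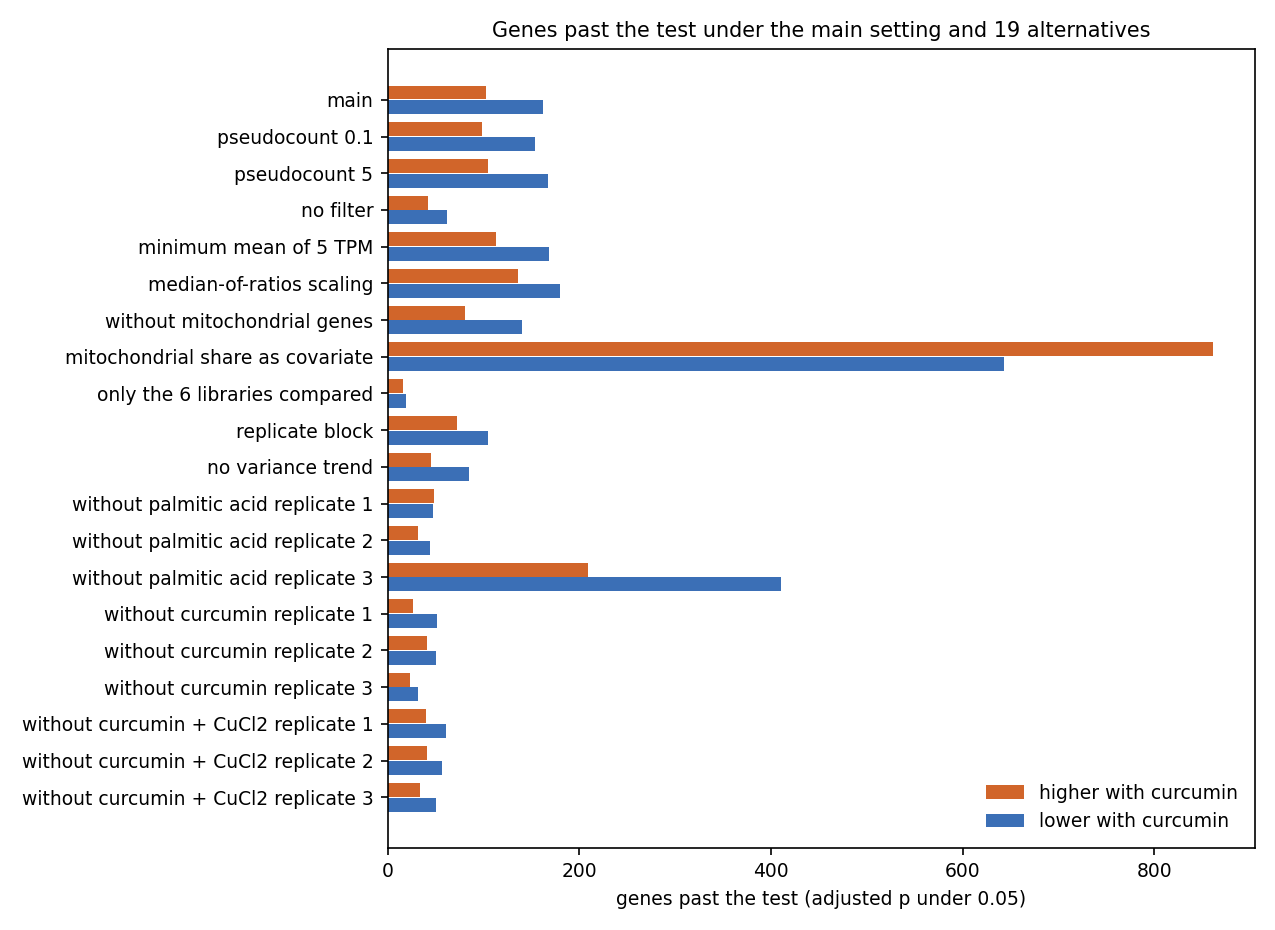
Bars give the number of genes past the test, higher (orange) and lower (blue) after curcumin, under the main setting and 19 alternatives; the x axis starts at 0. The count runs from 16 higher and 19 lower with only the 6 libraries compared to 862 and 643 with mitochondrial share as a covariate.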

How the data were processed

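Messenger RNA of 9 libraries, 3 from each of 3 treatments, was sequenced after TRIzol extraction with a stranded kit, per the labels. The authors deposited TPM, which was used as given; the submitters' processing notes name HISAT2 2.1.0, RSEM 1.3.3 and GRCh38.p13, without roles or annotation. RSEM shares reads among similar genes, so near-identical genes are uncertain. TPM keeps no depth, so no count model or counting interval was used.

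Genes averaging 1 TPM or more in the 9 libraries were fitted as log2(TPM + 1) in limma 3.58.1 (R 4.3.3) with 1 mean per group and a trend of variance with level. Tests were two-sided, with Benjamini-Hochberg adjustment over 13443 genes at 0.05. Fold changes given as ratios are ratios of mean TPM. Log2 fold changes are differences of log2(TPM + 1), so they understate low genes. All 9 libraries share 1 estimate of spread. The fit was tested on simulated data with independent scatter for each gene. Such data hold no shift shared by a whole library, so they cannot show how the fit handles one.

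The 36 gene lists, the comparison and the genes named were chosen with earlier results of these data known. Lists are described by counts and medians, without a test. The naming rule took, among genes past the test with at least 5 TPM and no overlap, the 25 largest rises and falls, the 10 largest gains and losses in TPM, up to 4 members past the test and 2 others of each list, and 19 genes named in advance. The text gives a part of them, and 36 of its 120 genes lie outside that rule and were picked after their values were seen. A symbol on several table lines was taken at its highest line. Gene positions are from GENCODE 29 (GRCh38), and sequences are from RefSeq (GRCh38.p14), printed with 20 bases on each side of the matches, or fewer after them where the window ends at the gene start. Alternatives were other pseudocounts, filters, scaling, fits and each library left out. Figures used matplotlib 3.10.9 (Python 3.11.15).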

Additional observations from a re-analysis of the deposited data

How the results depend on the processing

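Read depth is unknown and the spread rests on 3 libraries a group, so small changes of low genes were not resolved. Without a filter 104 genes passed (42 higher, 62 lower), without a variance trend 130 (45 and 85), with only the 6 libraries compared 35 (16 and 19) and with mitochondrial share as a covariate 1505 (862 and 643). Leaving out 1 library at a time gave 54 to 619 genes, 23 to 209 higher and 31 to 410 lower, the fewest without replicate 3 of curcumin and the most without replicate 3 of palmitic acid alone. The other alternatives, apart from the replicate block, gave 221 to 316 genes. The cause of these shifts was not tested.

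With the replicate number as a block 177 genes passed, 72 higher and 105 lower. Deviations from group means correlated at −0.15, 0.22 and 0.25 between libraries of the same number in the 2 groups. The numbers were therefore not taken to pair the libraries. Replicates 2 and 3 of palmitic acid alone correlated best with the curcumin library of their own number, and replicate 1 did not. For replicate 3 the margin was small, 0.246 with curcumin replicate 3 against 0.232 with curcumin replicate 1. Curcumin replicate 2 correlated alike with replicates 1 and 2 of palmitic acid alone (0.2236 and 0.2241).

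Of 120 genes named in the report, 97 passed the test, 30 of them in every alternative. None of the 97 changed sign, which few of the alternatives could have brought about in groups without overlap. Sign changes were confined to 6 genes that did not pass. Over the libraries left out in turn, the log2 fold change ran from −0.073 to 0.26 for FTH1, −0.055 to 0.36 for GCLC, −0.19 to 0.045 for CCN2, −0.026 to 0.093 for DDIT3, −0.35 to 0.0025 for ABCC4 and −0.16 to 0.18 for MCM4. With mitochondrial share as a covariate it was −0.11 for FTH1, 0.045 for CCN2, −0.037 for DDIT3 and 0.047 for ABCC4.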
